A study of Mus musculus with 2 samples.

Results

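The clustered histone genes of the mouse were followed across immune cells of the small intestine lamina propria, the connective tissue beneath the gut epithelium. Members were all genes whose symbol begins with Hist1h, Hist2h, Hist3h or Hist4h, which gave 67 of the 32285 genes counted. They comprised 6 H1, 18 H2A, 18 H2B, 12 H3 and 13 H4 genes. Of these, 65 were seen in at least 1 kept cell, and Hist1h2aa and Hist1h2ba were listed at 0 in both libraries. The data were 2 single-cell libraries, each a pool of 3 female littermates aged 10 to 12 weeks that had fasted for 16 h and had received olive oil by gavage for 2 h. One pool carried CD4-Cre together with floxed alleles of Aster-A (CD4-Cre; Aster-A F/F), and its comparison pool carried the floxed alleles alone (Aster-A F/F), so all mice had floxed Aster-A. CD4-Cre is expressed during T cell development in the thymus, so other immune cells in the same library are not expected to lose the gene, which is Gramd1a in the mouse. The sort took 100000 live cells per mouse that carried CD45 and lacked CD31, Ter119 and EPCAM. With 1 library per genotype there is no replicate check, and no test or p-value is given. All intervals are 95% intervals, and they cover counting error only.

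Histones package DNA. H2A, H2B, H3 and H4 form the core of the nucleosome, and H1 binds the linker DNA where it enters and leaves. The clustered genes are known as the replication-dependent set: they are switched on in S phase, when new DNA needs new nucleosomes, and most of their mRNAs end in a stem-loop rather than a poly(A) tail. That stem-loop is bound by SLBP, the protein that carries the message through processing, translation and decay. The replication-independent histone variants, such as H2A.Z and H3.3, are encoded elsewhere by genes with ordinary polyadenylated mRNAs. The library kit used here primes on poly(A), so the UMIs (unique molecular identifiers, counted once per captured molecule) of clustered histone genes report whatever part of their RNA carried a poly(A) stretch, and how large that part was in each cell state was not tested.

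The 67 genes lay in 4 clusters on the GRCm38 build. The Hist1 cluster held 54 genes on chromosome 13 between 21715763 and 23934851, the Hist2 cluster 10 genes on chromosome 3 between 96219865 and 96270132, the Hist3 cluster 2 genes on chromosome 11 between 58948920 and 58956830, and Hist4h4 stood alone on chromosome 6 between 136801553 and 136804415. A stem-loop of 16 bases was found after the coding end of the annotated transcript of 44 genes, and 15 of the other 23 had fewer than 30 annotated bases past the stop codon. Sequences are shown for members on which the results turn. Capitals mark the stem-loop and lower case its flanks, in the 3′ untranslated region on GRCm38, written as DNA:
Hist1h1e: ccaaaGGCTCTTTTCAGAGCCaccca (chr13:23621777-23621802, minus strand)
Hist1h2ap: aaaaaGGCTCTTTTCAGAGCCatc (chr13:21833026-21833049, minus strand)
Hist1h2ae: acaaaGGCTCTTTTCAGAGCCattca (chr13:23570663-23570688, minus strand)
Hist1h2ac: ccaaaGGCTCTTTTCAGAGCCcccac (chr13:23683472-23683497, minus strand)
Hist1h3c: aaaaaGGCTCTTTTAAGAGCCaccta (chr13:23745042-23745067, minus strand)
Hist1h4d: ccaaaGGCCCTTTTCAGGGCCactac (chr13:23581945-23581970, plus strand)
Hist1h4n: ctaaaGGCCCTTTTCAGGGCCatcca (chr13:21831793-21831818, minus strand)
Hist1h4m: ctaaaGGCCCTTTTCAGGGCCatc (chr13:21812124-21812147, plus strand)
Hist4h4: acaaaGGCCCTTTTCAGGGCCcacaa (chr6:136803993-136804018, minus strand)
The stem-loop of Hist1h1e, Hist1h2ap, Hist1h2ae and Hist1h2ac, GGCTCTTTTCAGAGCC, was shared by 26 members of the H1, H2A, H2B and H3 types. The form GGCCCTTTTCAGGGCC was found in 7 members, all of them H4 genes. The form of Hist1h3c, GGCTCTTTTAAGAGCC, was found in 6 members. Annotated transcripts differed in how far they ran past the loop, 22 of them by at least 100 bases. They ended 3 bases past it in Hist1h2ap and Hist1h4m, 31 bases past it in Hist1h4n, 151 in Hist1h2ae, 1153 in Hist1h1e, 2010 in Hist1h2ac and 2445 in Hist4h4.

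Promoters were taken from RefSeq (GRCm38.p6, 250 bases before to 50 bases after each start), and 62 members were matched. Motifs were searched on both strands as exact letters, namely CCAAT, the TATA box TATAAA, the octamer ATTTGCAT and the H1 box AAACACA. The CCAAT motif stood in 53 of 62 member promoters (85.5%), against 37.4% of all 32851 promoters in the table. It was found in every matched H1, H2A, H2B and H3 promoter but in 3 of 12 H4 promoters. TATAAA stood in 56.5% of member promoters, against 13.6% of all. The octamer stood in 21% of member promoters, against 1.74% of all, and its 13 carriers were 7 H2A and 6 H2B genes. The H1 box stood in 5 of 6 H1 promoters, against 7.18% of all. H2A and H2B genes often face each other across a shared promoter, so their windows overlap and are not independent. Hist1h1b and Hist1h2ae were low in resting cells, and Hist1h4n was no higher in cycling than in resting plasma-like cells. The promoters of these 3 members follow, with any of these motifs in capitals on either strand:
Hist1h1b: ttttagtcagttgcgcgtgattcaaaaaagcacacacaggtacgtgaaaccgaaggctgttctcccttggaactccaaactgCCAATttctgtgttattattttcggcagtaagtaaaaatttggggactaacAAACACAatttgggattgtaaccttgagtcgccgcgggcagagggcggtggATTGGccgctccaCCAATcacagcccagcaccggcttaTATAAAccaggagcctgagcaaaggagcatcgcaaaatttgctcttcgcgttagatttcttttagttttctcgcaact (chr13:21780576-21780875, minus strand)
Hist1h2ae: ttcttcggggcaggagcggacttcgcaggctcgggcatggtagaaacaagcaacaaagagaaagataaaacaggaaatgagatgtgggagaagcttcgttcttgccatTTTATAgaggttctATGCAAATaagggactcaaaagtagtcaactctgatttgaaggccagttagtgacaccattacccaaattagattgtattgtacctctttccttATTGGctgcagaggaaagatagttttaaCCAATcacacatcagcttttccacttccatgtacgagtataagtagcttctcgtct (chr13:23571171-23571470, minus strand)
Hist1h4n: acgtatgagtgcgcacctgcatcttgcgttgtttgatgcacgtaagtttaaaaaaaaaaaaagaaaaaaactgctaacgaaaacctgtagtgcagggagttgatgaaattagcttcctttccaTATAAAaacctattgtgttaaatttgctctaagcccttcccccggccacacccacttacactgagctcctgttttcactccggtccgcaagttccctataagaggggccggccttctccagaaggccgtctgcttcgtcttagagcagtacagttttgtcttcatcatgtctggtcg (chr13:21832148-21832447, minus strand)

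Filtering kept 12526 CD4-Cre cells and 12594 F/F cells, with 177456457 and 198152238 UMIs and a median of 14031 and 15319.5 UMIs per cell. The members took 280015 UMIs in the CD4-Cre library and 398176 in the F/F library. Of the kept cell barcodes, 47 were present in both libraries. Clusters were built without histone genes or the 30 cycle genes used below to call cycling. Genes outside that list could enter, Pclaf, Spc24 and Cdca3 among them. Named from fixed markers, the clusters gave plasma-like cells (7303 CD4-Cre and 8240 F/F) and T and innate lymphoid-like cells (3357 and 2072). They also gave macrophage-like cells (560 and 766), cells like type 1 dendritic cells (cDC1-like, 484 and 340) and B-like cells (168 and 77). Cells with UMIs of at least 6 of 30 cycle genes, none of them a histone, were called cycling, and those with at most 2 resting. By this rule 13% of CD4-Cre and 15.7% of F/F plasma-like cells were cycling (949 and 1290 cells), and 3.46% and 5.89% of T and innate lymphoid-like cells (116 and 122 cells). Few plasma-like cells lay beside the limit, with 75 CD4-Cre and 77 F/F cells at 5 cycle genes and 35 and 43 at 6. T and innate lymphoid-like cells had 20 and 19 at 5 and 10 and 9 at 6, against 116 and 122 called cycling. The cDC1-like cells had 18 and 15 at 5 and 8 and 6 at 6, against 57 and 50 called cycling. In these 2 classes the limit thus touched a larger share. Most cycling plasma-like cells, 93.8% in CD4-Cre and 95% in F/F, fell in cluster 4, whereas resting ones fell mainly in clusters 0 to 3. Cluster 4 had all 8 plasma markers detected. Its leading genes were cycle genes such as Ube2c and Top2a, and also the members Hist1h2ae, Hist1h2ab and Hist1h2ap. Gramd1a itself stood at 64.2 CPM (UMIs per 1000000 UMIs of the class) in CD4-Cre and 74.9 CPM in F/F T and innate lymphoid-like cells, but which exons the deletion removes was not known here, and a 3′ tag need not report on them.

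Cycling cells held several times more clustered histone RNA than resting cells of the same class, in both libraries. In CD4-Cre plasma-like cells the 67 genes together stood at 4443 CPM in cycling cells and 995 CPM in resting cells, a ratio of 4.47 (4.43 to 4.50). In F/F plasma-like cells they stood at 5181 CPM in cycling cells and 1211 CPM in resting cells, a ratio of 4.28 (4.25 to 4.31). Cycling plasma-like cells held a median of 106 (CD4-Cre) and 124 (F/F) member UMIs per cell, resting ones 12 and 16, with median depths of 24705 and 25386 UMIs in cycling cells and 16511 and 16169 in resting cells. The CD4-Cre library had 4985 CPM in cycling and 909 CPM in resting T and innate lymphoid-like cells, a ratio of 5.48 (5.32 to 5.65). The F/F library had 5173 CPM and 1021 CPM there, a ratio of 5.07 (4.91 to 5.23). Cycling and resting cells of this class shared clusters in different proportions. Clusters 6 and 9 held 86 of 116 cycling CD4-Cre cells and 71 of 122 cycling F/F cells, against 35.2% and 39.1% of resting ones. Markers of innate lymphoid and NK cells summed to 166 CPM in cycling and 961 CPM in resting cells of CD4-Cre and to 238 and 946 CPM in those of F/F, none of the 10 at 0. Within clusters 6 and 9, a comparison chosen after the data were seen, the ratio was 7.01 (6.69 to 7.34) in CD4-Cre and 5.27 (5.03 to 5.52) in F/F. The same order held in B-like cells, at 4065 against 720.5 CPM (CD4-Cre) and 4119 against 869 CPM (F/F), and in cDC1-like cells, at 1715 against 380 CPM and 1909 against 459 CPM. Macrophage-like cells stood at 1851 CPM cycling and 633 CPM resting in CD4-Cre, and at 3403 CPM cycling and 825 CPM resting in F/F.

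**Figure D1:**
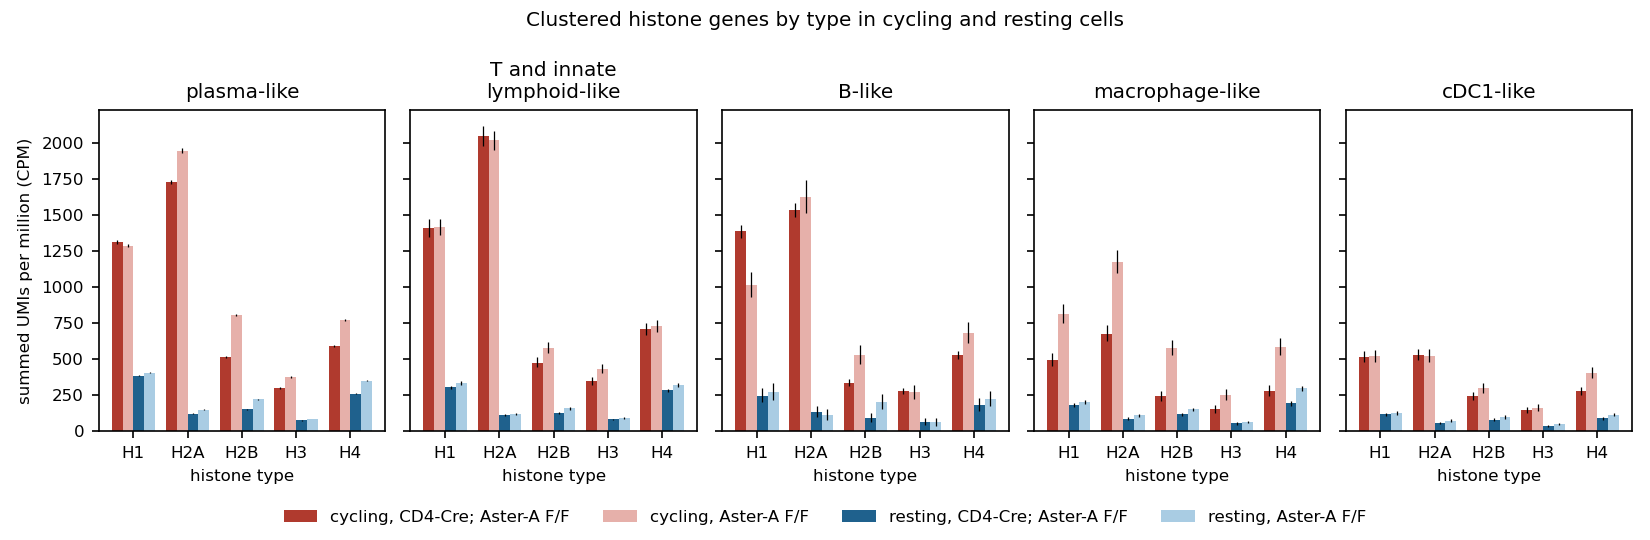
Summed CPM of the H1, H2A, H2B, H3 and H4 members in cycling (red) and resting (blue) cells of 5 classes, dark for CD4-Cre; Aster-A F/F and pale for Aster-A F/F, with 95% Poisson intervals. In plasma-like cells H2A stood at 1726 and 1945 CPM in cycling cells (CD4-Cre, F/F), against 121 and 149 CPM in resting cells.

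Some of these values rest on few cells. The 5 cells with the most member UMIs gave 2.39% (CD4-Cre) and 1.77% (F/F) of the member UMIs of cycling plasma-like cells and 18.9% and 17.8% of those of cycling T and innate lymphoid-like cells. They gave 65.7% in the 23 cycling F/F B-like cells, 70.2% and 50% in the cycling macrophage-like cells (32 in each library) and 41.9% and 42.4% in the cycling cDC1-like cells (57 and 50). Macrophage markers summed to 3157 and 4060 CPM in cycling macrophage-like cells, against 10971 and 10888 CPM in resting ones, none of the 8 at 0, and doublets were not removed. What these mixtures added to the cycling levels was not tested. Cycling T and innate lymphoid-like cells also had more UMIs (median 10688.5 and 11704) than resting ones (3445.5 and 3701.5). An alternative chosen after the data were seen made the cycling call on cells thinned to 1500 UMIs. Its rule also differed, with at least 2 cycle genes for cycling and none for resting. Ratios of T and innate lymphoid-like cells were then 2.62 in CD4-Cre and 3.13 in F/F, with 281 and 195 cells called cycling. What depth and the changed rule each added was not tested.

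Read gene by gene, the difference was broad. Of 67 members, 63 had at least 20 UMIs in the plasma-like comparison of both libraries, and 52 of them were at least 2-fold higher in cycling cells in both libraries, against 25.1% of all genes measured. None was 2-fold lower in both, against 1.88% of all genes. In T and innate lymphoid-like cells 35 of 51 measured members were at least 2-fold higher in both libraries, against 8.04% of all genes, and none was 2-fold lower in both, against 12.8%. The counts were 16 of 21 in B-like cells (21.2% of all genes), 17 of 32 in macrophage-like cells (4.75%) and 23 of 32 in cDC1-like cells (4.44%), with no member 2-fold lower in both libraries, against 4.93%, 12.3% and 1.12% of all genes. The median member ratio in plasma-like cells was 4.39 (CD4-Cre) and 4.55 (F/F), while the median of all genes was itself 1.54 and 1.53. That shift goes with immunoglobulin RNA, which took 29.3% and 26.8% of UMIs in cycling and 55.7% and 54.1% in resting plasma-like cells, so plasma-like ratios are read against it. In T and innate lymphoid-like cells the median member ratio was 4.10 and 4.11, against 0.829 and 0.839 for all genes. Cycling was also called there on thinned cells (1500 UMIs), from 2 cycle genes upward. Of 32 members then measured, 14 were 2-fold higher in both libraries, against 2.22% of all genes. With CPM taken over UMIs outside immunoglobulin genes, the summed plasma-like ratio was 2.79 (CD4-Cre) and 2.68 (F/F). On that scale 37 of 63 plasma-like members were at least 2-fold higher in cycling cells in both libraries, against 7.8% of all genes.

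**Figure D2:**
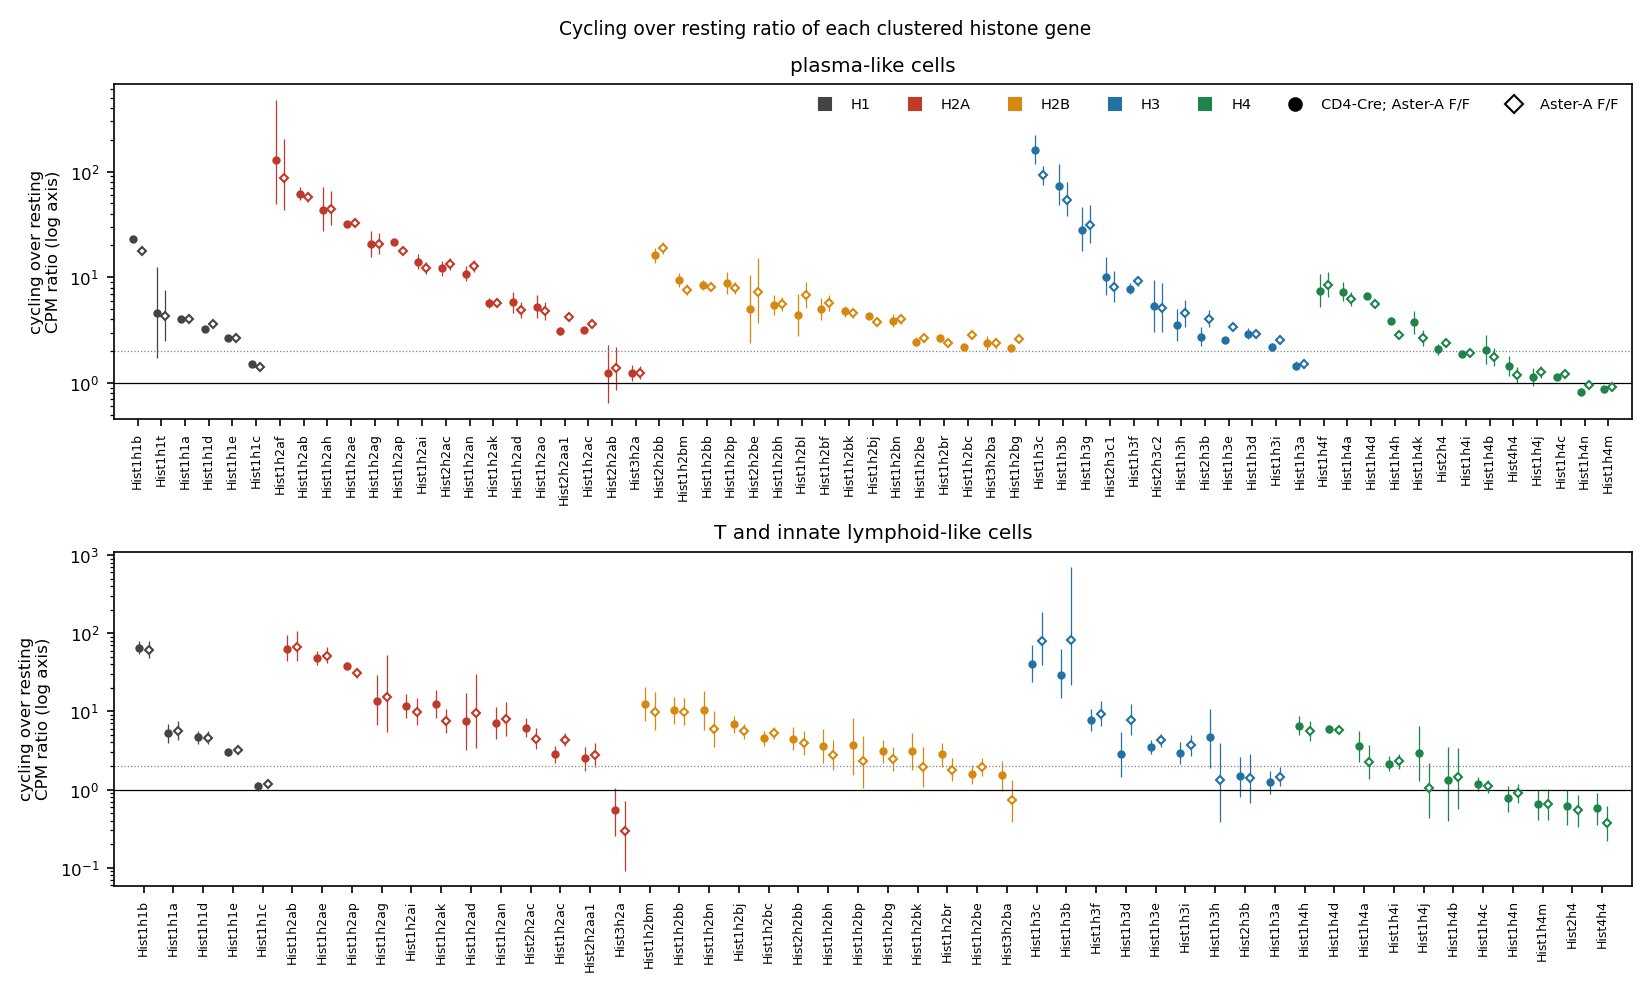
Ratio of CPM in cycling over resting cells (log axis) for each member measured in both libraries with UMIs in both states, plasma-like cells above and T and innate lymphoid-like cells below, coloured by histone type, filled circles for CD4-Cre; Aster-A F/F and open diamonds for Aster-A F/F, with 95% intervals. Among CD4-Cre plasma-like cells H3 members ran from 1.46 for Hist1h3a to 159 for Hist1h3c, and H4 members from 0.830 for Hist1h4n to 7.44 for Hist1h4f.

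The linker histones H1 divided by gene. Together they had a ratio of 3.41 (CD4-Cre) and 3.17 (F/F) in plasma-like cells and 4.61 and 4.26 in T and innate lymphoid-like cells. Hist1h1b, which encodes H1.5, stood at 450 CPM in cycling and 19.7 CPM in resting plasma-like cells of the CD4-Cre library, and at 392 and 21.9 CPM in those of the F/F library, ratios of 22.8 (21.7 to 24.0) and 17.9 (17.1 to 18.7). Its levels in T and innate lymphoid-like cells were 747 against 11.5 CPM (CD4-Cre) and 624 against 10.2 CPM (F/F), ratios of 65.1 and 61.0. It was thus low in resting cells of both classes. Hist1h1e (H1.4), which held the most UMIs of all members (12.4%), was high in both states, at 483 against 181 CPM in CD4-Cre and 465 against 175 CPM in F/F plasma-like cells. Hist1h1c (H1.2) differed least: its plasma-like levels were 209 against 137 CPM (CD4-Cre) and 215 against 153 CPM (F/F), ratios of 1.52 and 1.41 that lie near the median of all genes. Scaled to UMIs outside immunoglobulin genes, Hist1h1c turned to the other side of 1, at 0.953 and 0.881. It stood in T and innate lymphoid-like cells at 1.11 (0.966 to 1.26) and 1.19 (1.05 to 1.34). Hist1h1d (H1.3) and Hist1h1a (H1.1) lay between, with plasma-like ratios of 3.27 and 3.65 for the H1.3 gene and 4.05 and 4.06 for the H1.1 gene. Hist1h1t, the testis H1 gene, was low, with 11 CD4-Cre and 36 F/F UMIs over all cycling plasma-like cells.

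H2A genes had the highest summed ratio of the 5 types, 14.2 (13.9 to 14.5) in CD4-Cre and 13.1 (12.9 to 13.3) in F/F plasma-like cells. Ratios in T and innate lymphoid-like cells were 18.1 and 16.7. Hist1h2ap, whose transcript ends 3 bases past its stem-loop, stood at 873 CPM in cycling and 40.6 CPM in resting plasma-like cells (CD4-Cre) and at 777 and 43.9 CPM (F/F). Among T and innate lymphoid-like cells it had 1099 against 28.7 CPM (CD4-Cre) and 832 against 26.9 CPM (F/F), ratios of 38.3 and 30.9. Hist1h2ae, the carrier of an octamer in the promoter shown above, had plasma-like levels of 390 against 12.2 CPM and 537 against 16.5 CPM, ratios of 32.0 and 32.5. Its ratios in T and innate lymphoid-like cells were 48.1 and 51.8. Hist1h2ab reached 159 against 2.57 CPM in CD4-Cre and 201 against 3.52 CPM in F/F plasma-like cells, ratios of 61.8 and 57.2. Hist1h2af was nearly confined to cycling cells in this class, with 138 UMIs against 4 (CD4-Cre) and 241 against 8 (F/F). Hist1h2af had, in T and innate lymphoid-like cells, 33 and 39 UMIs in cycling cells and 0 in resting cells of either library, which makes it at least 81.7-fold and 52.3-fold higher when 3 counts over the resting cells are allowed. Hist1h2ah had plasma-like ratios of 43.1 and 44.4, and Hist1h2ai had 56.3 against 4.85 CPM in T and innate lymphoid-like cells of CD4-Cre and 52.5 against 5.33 CPM in those of F/F. Hist3h2a lay outside this pattern, at 6.84 against 5.51 CPM and 8.24 against 6.56 CPM in plasma-like cells. Its ratios were 0.546 and 0.292 in T and innate lymphoid-like cells. Hist2h2ab was not 2-fold higher in both libraries of plasma-like cells either, and at 1.24 was the lowest H2A member in CD4-Cre. Hist2h2aa1 and Hist2h2aa2 are near-identical copies, and how UMIs were divided between such pairs, or among the closely alike genes of each type, makes single-gene values uncertain.

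H2B genes were less spread. All 16 measured were at least 2-fold higher in cycling plasma-like cells in each library, against 30% (CD4-Cre) and 29.1% (F/F) of all genes. These ratios carry the immunoglobulin shift given above, and the lowest were 2.17 (CD4-Cre) and 2.37 (F/F). On the scale outside immunoglobulin genes all ratios of a library fall by the same factor, and these lowest ones lie under 2-fold. The H2B count was not taken on that scale. Their summed ratio was 3.36 (CD4-Cre) and 3.64 (F/F) in plasma-like cells and 3.84 and 3.65 in T and innate lymphoid-like cells. Hist1h2bc stood at 117 against 53.4 CPM in CD4-Cre and 202 against 71.0 CPM in F/F plasma-like cells, and Hist1h2bj at 113 against 25.9 CPM and 170 against 44.9 CPM. Both had resting levels well above those of H2A genes such as Hist1h2ab. The highest plasma-like ratios among H2B genes, 16.2 and 18.8, were those of Hist2h2bb.

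H3 genes included the member with the highest ratio in CD4-Cre and F/F plasma-like cells. Their summed ratio was 3.93 and 4.34 in plasma-like cells and 4.19 and 4.87 in T and innate lymphoid-like cells (CD4-Cre, F/F). Hist1h3c was close to absent from resting cells, at 73.7 against 0.462 CPM in CD4-Cre and 89.0 against 0.970 CPM in F/F plasma-like cells, ratios of 159 (118 to 220) and 91.8 (75.1 to 113). Hist1h3b followed with 73.8 and 54.3, and Hist1h3g had 165 UMIs against 22 (CD4-Cre) and 293 against 27 (F/F). Hist1h3e had 82.5 against 32.1 CPM and 102 against 30.3 CPM, ratios of 2.57 and 3.36. Hist1h3a was the lowest of the type, at ratios of 1.46 and 1.5, near the median of all genes.

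H4 genes had the lowest summed ratio, 2.28 (CD4-Cre) and 2.21 (F/F) in plasma-like cells and 2.5 and 2.28 in T and innate lymphoid-like cells. Hist1h4d, the H4 gene with the most UMIs, stood at 257 against 38.7 CPM in CD4-Cre and 320 against 57.6 CPM in F/F plasma-like cells, ratios of 6.65 and 5.55. Hist1h4i stood at 98.6 against 52.0 CPM and 153 against 79.1 CPM, ratios of 1.90 and 1.93. Several H4 genes were no higher in cycling cells than in resting ones. Hist1h4n had 29.7 against 35.8 CPM in CD4-Cre and 56.9 against 59.5 CPM in F/F plasma-like cells, ratios of 0.830 (0.766 to 0.898) and 0.958 (0.910 to 1.01). Hist1h4m had 31.2 against 35.8 CPM and 28.3 against 31.1 CPM, ratios of 0.869 and 0.912. Hist1h4c and Hist1h4j had ratios of 1.13 and 1.2 and of 1.15 and 1.27, all under the median of all genes, and both turned below 1 when scaled to UMIs outside immunoglobulin genes (0.707 and 0.755 for Hist1h4c, 0.718 and 0.797 for Hist1h4j). Under that scaling Hist1h4n stood at 0.519 and 0.6. In T and innate lymphoid-like cells, where immunoglobulin does not set the scale, Hist4h4 had 13.8 CPM in cycling and 23.6 CPM in resting cells of CD4-Cre and 10.2 and 26.9 CPM in those of F/F, ratios of 0.582 and 0.377. Hist2h4 had 0.610 and 0.541 and Hist1h4m 0.647 and 0.662 there.

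Type and annotated 3′ end did not divide the members cleanly. In plasma-like cells the median ratio was 2.62 (CD4-Cre) and 2.79 (F/F) over the 22 members annotated to run at least 100 bases past the loop. It was 5.78 and 5.68 over the measured members that end nearer to it and 4.68 and 5.93 over those with no annotated loop. Within the first of these sets Hist1h2ae stood at 32.0 and 32.5, and within the second Hist1h4n and Hist1h4m stood below 1, so the ranges overlap. These medians describe genes that share sequence and are not independent.

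The partners of the clustered genes were also measured. Of 11 replication-independent variant genes, 10 had enough UMIs in plasma-like cells and 8 of them were at least 2-fold higher in cycling cells in each library. H2afz, which encodes H2A.Z, stood at 1507 against 130 CPM in CD4-Cre and 1303 against 124 CPM in F/F plasma-like cells, ratios of 11.6 and 10.5. The H3.3 genes H3f3a and H3f3b had ratios of 2.83 and 2.73 and of 1.86 and 1.78, and H2afj 1.22 and 1.28. Of 12 genes for histone mRNA processing, 9 (CD4-Cre) and 10 (F/F) were at least 2-fold higher. Slbp, whose product binds the stem-loop, stood at 69.8 against 14 CPM and 66.6 against 16.9 CPM, and Casp8ap2, Cpsf2 and Lsm1 had ratios of 3.51 and 3.69, 3.62 and 3.47, and 2.15 and 2.05. Of 15 histone chaperone genes, 14 were at least 2-fold higher in each library. Nasp, a chaperone of H3 and H4, had ratios of 8.27 and 7.23, Nap1l1 7.01 and 6.69, and Anp32e, which handles H2A.Z, 5.25 and 4.83, whereas Atrx had 1.41 and 1.42. These counts stand against 30% (CD4-Cre) and 29.1% (F/F) of all genes past the same fold. With CPM taken outside immunoglobulin genes, 5 of 10 variant, 6 of 12 processing and 9 of 15 chaperone genes passed it in both libraries, against 7.8% of all genes. In T and innate lymphoid-like cells, against 11.1% and 10.1% of all genes, 4 of 9 variant genes passed the fold in each library, 3 and 2 of 11 processing genes and 9 of 15 chaperone genes. H2afz had ratios of 5.87 and 5.64 there, Slbp 1.98 and 1.31, Nasp 1.76 and 1.46, and Atrx 0.763 and 0.851.

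Cycling cells were then divided by which of the cycle genes they showed. A cell was S-led when more of the 15 S genes than of the 15 M genes were detected, and M-led when fewer were. In plasma-like cells the clustered histones were lower in S-led cells: 3901 CPM in 325 S-led cells and 4837 CPM in 571 M-led cells of the CD4-Cre library, a ratio of 0.806 (0.796 to 0.817), and 4201 CPM in 486 and 5780 CPM in 736 cells of the F/F library, a ratio of 0.727 (0.719 to 0.734). By type the ratio was 0.937 and 0.923 for H1, 0.746 and 0.634 for H2A, 0.712 and 0.635 for H2B, 0.796 and 0.719 for H3 and 0.804 and 0.774 for H4. No member was 2-fold higher in S-led cells in both libraries and none was 2-fold lower, of 60 measured in both, against 0.674% and 1.21% of all genes. Hist1h1b went the other way from most of the group, at 496 against 429 CPM (1.15, 1.11 to 1.2) in CD4-Cre and 395 against 381 CPM (1.04, 1.0 to 1.08) in F/F. Of the 12 processing genes none was 2-fold higher in S-led cells of either library, against 2.49% (CD4-Cre) and 2.44% (F/F) of all genes. One of the 12, Zfp473, was 2-fold lower in CD4-Cre and none in F/F, against 2.9% and 2.87% of all genes. Their median ratio was 1.19 and 1.12, against 1.06 and 1.03 over all genes, and Slbp stood at 1.96 and 1.77. Of the 15 chaperone genes 1 was 2-fold higher in each library, Chaf1b, a subunit of the chromatin assembly factor, at 2.91 and 3.39. The chaperone median was 1.44 and 1.25, and Nasp stood at 1.89 and 1.73. The cells were S-led or M-led by genes of the same transcriptomes, so these are descriptions.

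**Figure D3:**
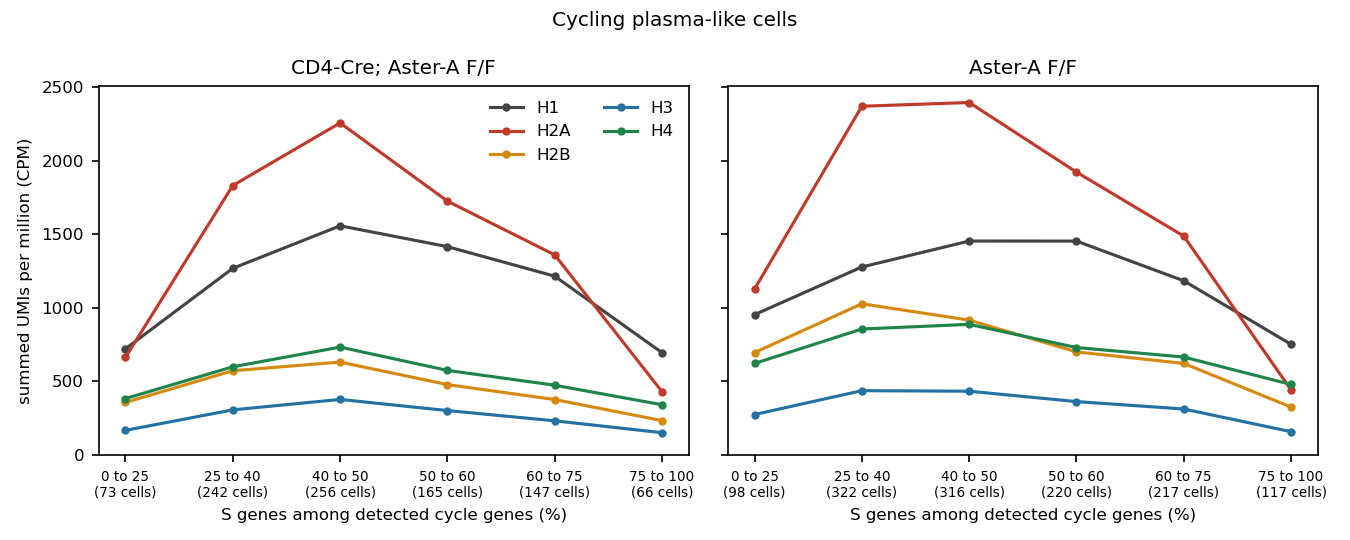
Summed CPM of each histone type in cycling plasma-like cells, by the share of S genes among the cycle genes detected in a cell, CD4-Cre; Aster-A F/F at left and Aster-A F/F at right, with cells per bin. H2A was highest in the bin from 40 to 50%, at 2258 and 2397 CPM, and stood at 430.4 and 442 CPM in the bin from 75 to 100%.

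Across the share of S genes the level was highest in the middle. In CD4-Cre plasma-like cells the summed level was 2295 CPM below 25%, 4581 CPM from 25 to 40%, 5560 CPM from 40 to 50%, 4499 CPM from 50 to 60%, 3660 CPM from 60 to 75% and 1853 CPM above 75%. The F/F series was 3676, 5972, 6090, 5173, 4274 and 2158 CPM over the same bins. Median UMIs per cell were also highest in the bin from 40 to 50%, at 28353.5 and 28180 (CD4-Cre, F/F), and lowest above 75%, at 20034.5 and 20120. How far depth moves with the level was not tested. Hist1h1c did not follow this course, with 194, 253, 213, 176, 176 and 192 CPM over the CD4-Cre bins. In T and innate lymphoid-like cells the S-led over M-led ratio was 0.310 (0.295 to 0.327) in CD4-Cre (61 and 49 cells) and 0.516 (0.494 to 0.540) in F/F (68 and 48 cells), and 16 of 38 members were at least 2-fold lower in both libraries, against 2.1% of all genes, with none 2-fold higher (0.85%). With S genes above 75% of those detected, these cells held 436 CPM (25 CD4-Cre cells) and 750 CPM (32 F/F cells), below their resting levels of 909 and 1021 CPM.

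Between genotypes the clustered histones were lower in the CD4-Cre library in resting and cycling plasma-like cells and in resting T and innate lymphoid-like cells. Resting plasma-like cells had 995 CPM in CD4-Cre and 1211 CPM in F/F, a ratio of 0.822 (0.815 to 0.829), and cycling ones 4443 and 5181 CPM, a ratio of 0.858 (0.851 to 0.864). Resting T and innate lymphoid-like cells had 909 and 1021 CPM, a ratio of 0.890 (0.864 to 0.918), and cycling ones 4985 and 5173 CPM, a ratio of 0.964 (0.935 to 0.994) that turned to 1.048 when each cell was thinned to 1500 UMIs. The ratio was 0.767 in resting macrophage-like cells and 0.829 in resting cDC1-like cells. Free RNA, read from barcodes with 10 to 100 UMIs, was lower too: 1575 CPM in CD4-Cre and 1867 CPM in F/F, a ratio of 0.844 (0.797 to 0.893). What genotype, the pool of mice and the library each add cannot be told apart with 1 library per genotype.

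**Figure D4:**
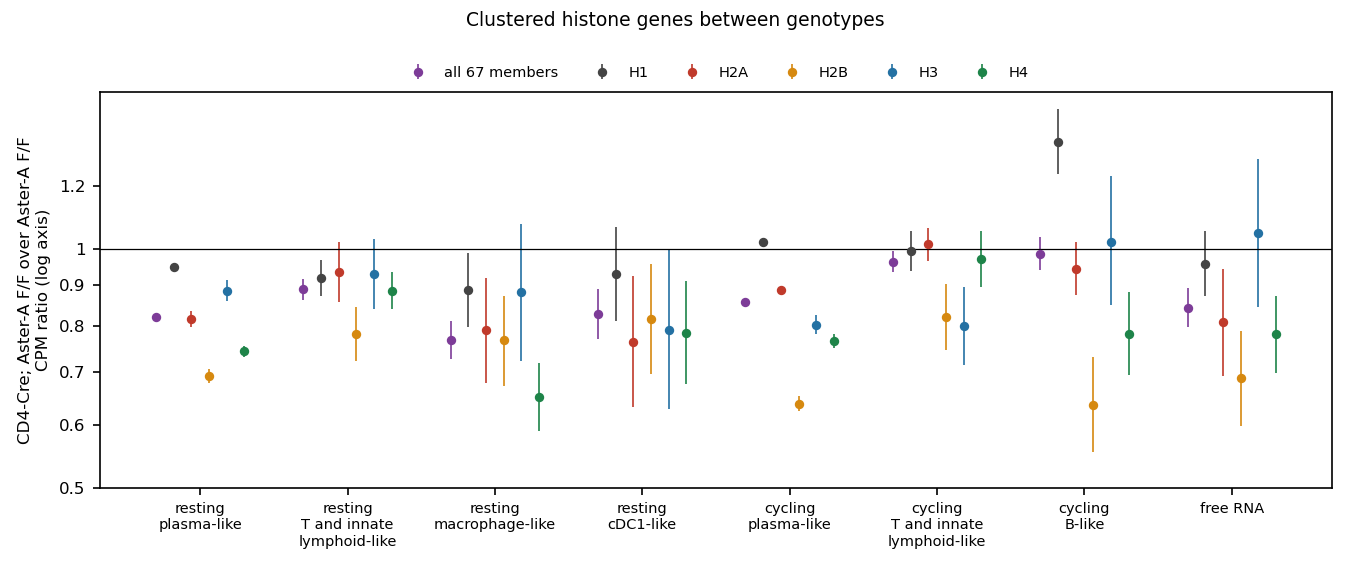
Ratio of CPM in the CD4-Cre; Aster-A F/F library over the Aster-A F/F library (log axis), for all 67 members and each histone type, in 4 resting and 3 cycling classes and in free RNA (barcodes with 10 to 100 UMIs), with 95% intervals. H2B in resting plasma-like cells stood at 0.691, against 0.948 for H1.

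The types differed in size. In resting plasma-like cells H1 stood at 0.948 (0.935 to 0.962), H2A at 0.817 (0.797 to 0.837), H2B at 0.691 (0.677 to 0.706), H3 at 0.887 (0.859 to 0.915) and H4 at 0.743 (0.731 to 0.755). In cycling plasma-like cells the order was much the same, with 1.02 for H1, 0.888 for H2A, 0.638 for H2B, 0.803 for H3 and 0.766 for H4. Free RNA showed 0.959 for H1, 0.809 for H2A, 0.687 for H2B, 1.05 for H3 and 0.781 for H4. In resting T and innate lymphoid-like cells the types were closer together, from 0.782 for H2B to 0.935 for H2A, and the intervals of H2A and H3 reached 1.

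Of 62 members measured in resting plasma-like cells, 21 were at least 1.5-fold lower in CD4-Cre, against 5.36% of all genes, and none was 1.5-fold higher, against 4.14%. The 21 were 1 H1, 4 H2A, 8 H2B, 2 H3 and 6 H4 genes. In cycling plasma-like cells 20 of 63 were lower (5.56% of all genes) and none higher (4.19%). In resting T and innate lymphoid-like cells 9 of 51 were lower (4.27%) and 1 higher (4.6%), and in cycling ones 4 of 50 were lower (7.25%) and 2 higher (8.76%). Of the 51, 8 were lower in both resting classes, against 0.801% of all genes. Those 8 were Hist1h2bl, Hist1h4j, Hist1h2ak, Hist1h2bn, Hist1h2bp, Hist1h4n, Hist1h2bj and Hist1h2bh. Of the variant, processing and chaperone genes, none passed 1.5-fold in either direction in resting plasma-like or resting T and innate lymphoid-like cells.

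Hist1h4n was lower in CD4-Cre in resting plasma-like and resting T and innate lymphoid-like cells, with values of the same side in resting macrophage-like and cDC1-like cells. Resting plasma-like cells held 35.8 CPM in CD4-Cre and 59.5 CPM in F/F, a ratio of 0.601 (0.577 to 0.627), and resting T and innate lymphoid-like cells 27.2 and 43.6 CPM, a ratio of 0.623 (0.531 to 0.732). Resting macrophage-like cells held 13.5 and 33.4 CPM (0.405, 0.280 to 0.575), and resting cDC1-like cells 11.4 and 19.5 CPM (0.586, 0.391 to 0.873). It was the only 1 of 28 members measured in all 4 to pass 1.5-fold lower in each, against 0.279% of all genes. Free RNA could bring all or nearly all Hist1h4n of the macrophage-like and cDC1-like cells, so this count is not read as 4-class agreement. In free RNA Hist1h4n stood at 51.8 CPM in CD4-Cre and 96.4 CPM in F/F, a ratio of 0.538 (0.400 to 0.718). The free RNA of the F/F library thus held more of it as well. Hist1h2ac stood at 31.1 and 44.5 CPM in resting plasma-like cells (0.699, 0.668 to 0.733), 99.1 and 163 CPM in cycling ones (0.609, 0.581 to 0.639) and 22.3 and 28.6 CPM in resting T and innate lymphoid-like cells (0.780, 0.646 to 0.943).

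Free RNA was set against the levels of resting T and innate lymphoid-like, macrophage-like and cDC1-like cells. This was not done for plasma-like or B-like cells, so the part of free RNA in their levels was not tested. Immunoglobulin took 5.58% (CD4-Cre) and 5.64% (F/F) of UMIs in resting T and innate lymphoid-like cells and 35.3% and 35.0% of free RNA. If free RNA gave all of that immunoglobulin, it would bring 249 and 301 CPM of clustered histones, of 909 and 1021 CPM measured, or 382 and 461 CPM with free RNA read from barcodes with 150 to 350 UMIs. In resting macrophage-like cells it would bring 585 and 812 CPM, of 633 and 825 CPM measured, and in resting cDC1-like cells 338 and 367 CPM, of 380 and 459 CPM measured. With barcodes of 150 to 350 UMIs the amounts would be 900 and 1242 CPM in macrophage-like and 521 and 561 CPM in cDC1-like cells, above the measured levels. Each amount is the most its range of free RNA could bring under this assumption. For Hist1h4n in macrophage-like cells the amounts from barcodes with 10 to 100 UMIs (19.3 and 42.0 CPM) exceeded the 13.5 and 33.4 CPM measured. The part of free RNA in these levels was not tested, and no difference between genotypes is read from resting macrophage-like or cDC1-like cells. For Hist1h4n in resting T and innate lymphoid-like cells the amounts would be 8.18 and 15.6 CPM from barcodes with 10 to 100 UMIs and 14.7 and 24.2 CPM from those with 150 to 350, of 27.2 and 43.6 CPM measured.

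Members with the largest differences between genotypes were mostly H2B and H4 genes. In resting plasma-like cells Hist1h2bp had 1.06 CPM in CD4-Cre and 2.99 CPM in F/F (0.355, 0.281 to 0.446), Hist1h4b 1.21 and 2.77 CPM (0.436, 0.348 to 0.543) and Hist1h2bj 25.9 and 44.9 CPM (0.577, 0.549 to 0.606). In cycling plasma-like cells Hist1h2bl had 1.80 and 5.03 CPM (0.357, 0.253 to 0.497) and Hist1h2bc 117 and 202 CPM (0.578, 0.554 to 0.603). A few members went the other way by less than 1.5-fold: in resting plasma-like cells Hist2h2aa1 stood at 1.22 (1.12 to 1.33), Hist1h4m at 1.15 (1.1 to 1.21), Hist1h3e at 1.06 and Hist1h1e at 1.04. Hist1h1b and Hist1h2ap were higher in CD4-Cre in 4 of 5 cycling classes. Hist1h1b had ratios of 1.15 in cycling plasma-like cells, 1.2 in cycling T and innate lymphoid-like cells, 1.73 in cycling B-like cells and 1.54 in cycling cDC1-like cells, and Hist1h2ap had 1.12, 1.32, 1.30 and 1.31. In cycling macrophage-like cells both were lower, at 0.597 (0.472 to 0.754) for Hist1h1b and 0.691 (0.588 to 0.812) for Hist1h2ap. Cycling cells of the B-like class numbered 96 and 23, those of the cDC1-like class 57 and 50. In cycling T and innate lymphoid-like cells Hist1h2ac (62.9 and 124 CPM) and Hist1h2bc (92.4 and 164 CPM) were lower in CD4-Cre, at 0.509 and 0.564.

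Within the resting cells of each class most clusters showed the same side. All 5 plasma-like clusters stood below 1, from 0.669 in cluster 4 (114 and 119 resting cells) to 0.907 in cluster 3. The cycling cells of cluster 4 (890 and 1226) stood at 0.869. Of 8 T and innate lymphoid-like clusters, also in resting cells, 5 had intervals below 1. They included 0.740 in cluster 6, led by Cd4, 0.696 in cluster 9, with Foxp3 among the leading genes, and 0.661 in cluster 14, led by Cd8b1. Cluster 7 was the exception. Led by Zbtb16, Il7r, Gm2682 and Cxcr6, it held 1433 CPM in 736 resting CD4-Cre cells and 1069 CPM in 351 F/F cells, a ratio of 1.34 (1.26 to 1.43). Without it, the ratio of resting T and innate lymphoid-like cells was 0.752 (0.726 to 0.779) in place of 0.890. Clusters 15 and 17 had intervals that reached 1, at 0.935 (0.843 to 1.04) and 1.23 (0.999 to 1.51).

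**Figure D5:**
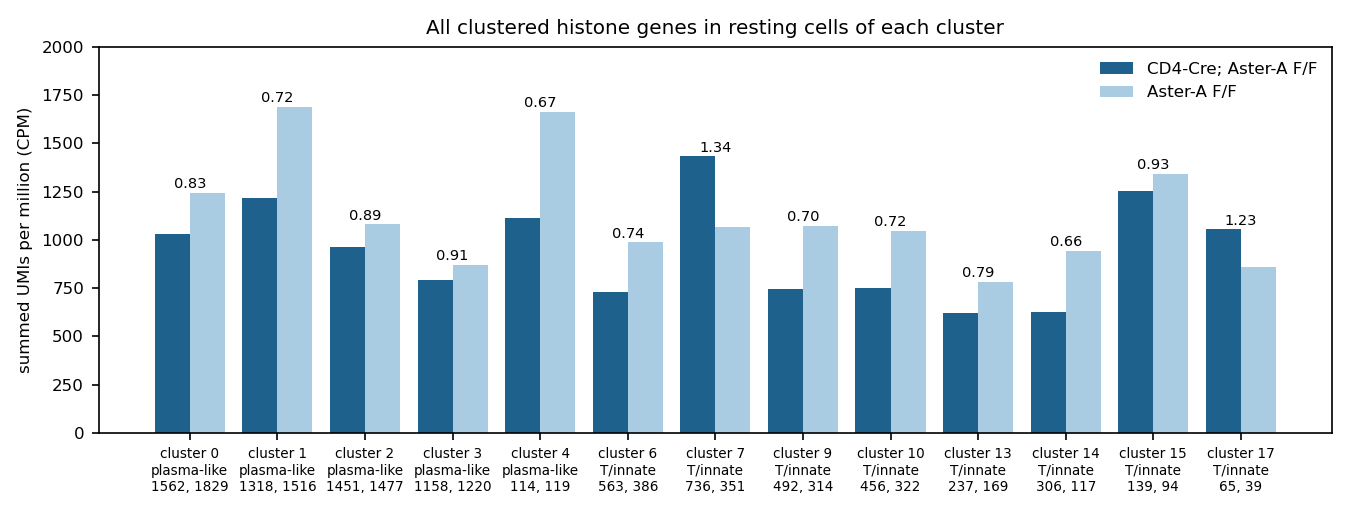
Summed CPM of all clustered histone genes in resting cells of each plasma-like and T and innate lymphoid-like cluster, dark for CD4-Cre; Aster-A F/F and pale for Aster-A F/F, with the ratio above and the cells of each library (CD4-Cre, F/F) below. Cluster 7 stood at 1433 CPM in CD4-Cre and 1069 CPM in F/F.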

How the data were processed

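The data were 10x 3′ single-cell libraries, 1 per genotype, each from 3 pooled mice. The authors' deposited matrices hold raw UMI counts per gene and barcode. Per the submitters' processing notes, Cell Ranger 7.2.0, Seurat 5.0.1 and mm10/GRCm38 were used, and the annotation release is not given in the sources used here. From these counts, barcodes were kept as cells from 1000 UMIs and 500 genes upward, up to a mitochondrial share of 10%. Doublets were neither called nor removed. Cells were clustered in Scanpy 1.11.5 (2000 variable genes, 30 components, 15 neighbours, Leiden resolution 1), and clusters were named from markers. Left out were histone, immunoglobulin, T cell receptor, mitochondrial, ribosomal and listed genes, and of cycle genes the 30 used to call cycling. Cell types were rebuilt here and may differ from the study's own. A mixed cluster, a pancreatic RNA cluster (1 CD4-Cre and 686 F/F cells), a neutrophil and a stromal cluster were set aside.

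UMIs were summed per class, state and library. Levels are CPM with exact Poisson intervals, and ratios have exact conditional binomial intervals. Genes with at least 20 UMIs over a pair were measured, and folds of 2 (state) and 1.5 (genotype) were used for counts. No test was possible with 1 library per genotype, and cycling and resting cells were cut from the same cells. Stem-loops and ends came from GENCODE M21, and promoters from RefSeq. Ratios were tested on simulated data. Pancreatic markers stood at 0.840 CPM in CD4-Cre and 100.3 CPM in F/F resting plasma-like cells. They stood at 20.6 and 474 CPM in resting T and innate lymphoid-like cells. Resting macrophage-like cells had 3.55 and 435 CPM and resting cDC1-like cells 0.715 and 396 CPM. The part of this RNA in the genotype ratios was not tested.

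The members and lists were chosen with earlier results of these data known. Named were the 16 members with the most UMIs, up to 8 with the largest and 4 with the smallest cycling over resting ratios by interval bound in plasma-like and T-like cells, up to 4 per direction between genotypes with at least 100 UMIs, Hist1h4n and Hist1h2ac, and up to 4 genes of each other list by UMIs. Hist1h1t, Hist2h2ab, Hist2h2bb, Hist1h3a, Hist1h4f, Zfp473 and Chaf1b were chosen after their values were seen. Alternatives were other scalings, cell filters, cycling rules, thinning to 1500 UMIs, leaving out the 5 richest cells and a coarser clustering.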

Additional observations from a re-analysis of the deposited data

Results flagged for a closer look

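One result stood apart. Among resting cells of cluster 7, led by Zbtb16, Il7r, Gm2682 and Cxcr6, the clustered histones were higher in CD4-Cre than in F/F, with a ratio of 1.34 (1.26 to 1.43), whereas 5 of the other T and innate lymphoid-like clusters had intervals below 1. This difference between clusters was not tested. Within cluster 7, Hist1h4m stood at 3.23, Hist1h1c at 1.77, Hist1h4d at 1.58 and Hist1h4c at 1.51, while Hist1h2bc stood at 0.498 and Hist1h4n at 0.940. By type the ratio was 1.54 for H1, 1.41 for H4 and 1.04 for H2B.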

How the results depend on the processing

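No paired analysis was possible because each genotype has 1 library. With CPM outside immunoglobulin genes, the cycling plasma-like levels were 6279 (CD4-Cre) and 7081 CPM (F/F), the plasma-like cycling over resting ratios 2.794 and 2.682, the S-led over M-led ratios 0.7341 and 0.6896 and the resting plasma-like genotype ratio 0.8515, with 9 of 15 chaperone and 5 of 10 variant genes past 2-fold, against 7.8% of all genes. With median-of-ratios factors, the cycling over resting ratios were 2.821 and 2.716 in plasma-like and 6.423 and 5.89 in T and innate lymphoid-like cells, the S-led ratios 0.7566 and 0.7009 and the genotype ratios 0.8393 (plasma-like) and 0.8613 (T and innate lymphoid-like), with the same 2 counts against 8.01% of all genes. With at most 5% mitochondrial UMIs the cycling over resting ratios were 4.528 and 4.364 in plasma-like and 5.059 and 5.342 in T and innate lymphoid-like cells, and the T and innate lymphoid-like genotype ratio was 0.9263. With cycling set at 10 genes, the levels were 4713 and 5459 CPM, the ratios 4.738, 4.509, 6.18 and 5.847 in the same order, and the S-led ratios 0.8487 and 0.7752. With cycling set at 4 genes they were 3882 and 4639 CPM, 3.902, 3.831, 4.239 and 4.377, and 0.7055 and 0.6626. Thinned to 1500 UMIs they were 4605 and 5386 CPM, 4.055, 3.736, 5.175 and 4.365, and 0.7589 and 0.6891, with a resting plasma-like genotype ratio of 0.7879 and with 34 of 50 measured plasma-like members past 2-fold (21% of all genes) and 21 of 34 T and innate lymphoid-like ones (5.33%). Without the 5 richest cells they were 4368 and 5117 CPM, 4.41, 4.246, 4.933 and 4.699, and 0.7895 for S-led CD4-Cre cells. Cycling was also called on thinned cells, from 2 cycle genes upward with none for resting, a setting chosen after seeing the data. The ratios were then 4.168 in F/F plasma-like cells and 2.62 and 3.126 in T and innate lymphoid-like cells. Without cluster 7, also chosen after seeing the data, the CD4-Cre T and innate lymphoid-like ratio was 6.561 and the genotype ratio 0.7519. With clusters 6 and 9 alone, chosen likewise, the T and innate lymphoid-like cycling over resting ratios were 7.01 and 5.269. Thinning turned 2 genotype ratios of cycling T and innate lymphoid-like cells, to 1.048 for all members and 1.052 for Hist1h4n. The cause of these shifts was not tested. Cycling T and innate lymphoid-like, B-like, macrophage-like and cDC1-like cells were few, which limits their precision.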
